A study of Mus musculus with 15 samples.

Results

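The mouse genes named Zfp with a number are the subject here, a group of 287 genes among the 23412 in the count files. Of 333 symbols that consist of Zfp and a number, 3 (*Zfp7*, *Zfp42* and *Zfp352*) were set aside by name and 43 had a mean raw count under 50 over the 15 libraries. The members were therefore chosen by name and by their mean raw count over all 15 libraries, with earlier results of these data known. No fold change or p-value entered this rule. The mean covers all conditions, so the choice was not independent of differences between them. Some members reached the limit only through the *Stag2*-/- libraries, as given below. Just below the limit of 50 were *Zfp703*, *Zfp128* and *Zfp3* with mean raw counts of 47.9, 48.7 and 49.2, and just above it were *Zfp467*, *Zfp773* and *Zfp963* with 51.7, 53.3 and 53.4. RNA was measured by polyA RNA-seq in mouse embryonic stem cells (mESCs) of the v6.5 line in 5 conditions with 3 libraries each: wild-type cells with the control siRNA siGLO, *Stag1*-/- cells with siGLO, *Stag2*-/- cells with siGLO, wild-type cells with an siRNA against *Stag1* (siStag1), and *Stag2*-/- cells with siStag1. STAG1 and STAG2 are alternative subunits of cohesin, the ring complex that holds sister chromatids together and forms chromatin loops. All cells received an siRNA at 50 nM and were collected 48 h later, and each knockout genotype is 1 CRISPR clone, so genotype and clone cannot be told apart. The question of the design is how expression changes when either STAG protein, or both, are lost.

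Most of these genes encode proteins with tandem C2H2 zinc fingers, small folds that each hold a zinc ion and read a few bases of DNA. The largest class also carries a KRAB domain, which recruits TRIM28 and with it histone and DNA methylation, and in mESCs KRAB zinc finger proteins silence retroelements and keep imprinted methylation. Many KRAB genes lie in clusters that arose by tandem duplication, and several such arrays are known for dense chromatin marks of their own. The name Zfp also covers unrelated genes, such as *Zfp36*, which encodes an mRNA decay factor, and *Zfp207*, which encodes a spindle protein.

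All 287 members passed the filter on low counts and were tested. In 13 members the mean raw count was under 50 in at least 1 condition, and 5 (*Zfp454*, *Zfp467*, *Zfp521*, *Zfp618* and *Zfp951*) reached the limit of 50 only through the *Stag2*-/- libraries, so that each one's own values there are given as a description without a test. Counts of members called include them, and the counts without them are given beside the main ones. In the translated annotated coding sequence, 161 members (the KRAB members) held the core of the KRAB A box, 125 did not, and 1 (*Zfp862*) had no protein in the annotation. The median number of C2H2 fingers was 12 in KRAB members and 7 in the rest, the largest number was 36, and 8 members had none of the fingers searched for. Together the members took 0.925% to 1.05% of the counts of a library, which were 14982560 to 19070126 counts on genes (median 17700059). In counts per kilobase of exon and 1e6 gene counts, the median level was 2.86 for KRAB members and 5.26 for members without the core, against 5 over all genes tested that have a length. The highest mean levels on this scale belonged to *Zfp106* (81.8), *Zfp57* (69.8), *Zfp207* (46.3), *Zfp428* (41.7), *Zfp568* (36.5) and *Zfp706* (36). These levels are means over all 15 libraries and describe the rule's own measure.

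Normalized *Stag2* counts were 663 to 739 in *Stag2*-/- siGLO and 2329 to 2334 in wild-type siGLO cells, and *Stag1* counts fell from 2012 to 2288 in wild-type siGLO to 353 to 518 in wild-type siStag1. In *Stag2*-/- cells *Stag1* went from 1875 to 2204 with siGLO to 629 to 781 with siStag1, so that more *Stag1* RNA was left than in wild-type cells with the same siRNA. In *Stag1*-/- the *Stag1* count was 1826 to 2368, and a count over the whole gene does not check a deletion inside it. The paper describes an in-frame deletion in the *Stag1*-/- clone used for RNA-seq, with a usual *Stag1* RNA level and no STAG1 protein seen by western blot. The summed level of 10 mESC markers was 5660 to 5980 CPM (counts scaled to 1e6 per library) in wild-type siGLO, 5070 to 5250 in wild-type siStag1, 4520 to 5150 in *Stag1*-/-, 4070 to 5050 in *Stag2*-/- and 2730 to 3560 in *Stag2*-/- siStag1. The 8 fibroblast feeder markers together reached 20 to 40.1 CPM in every condition, with *Lum* and *Dcn* at 0 in all wild-type siGLO libraries. The 6 neural progenitor markers summed to 64.2 to 79 CPM in wild-type siGLO, 58.1 to 72.1 in *Stag1*-/-, 90.4 to 185 in *Stag2*-/- and 129 to 239 in *Stag2*-/- siStag1. The 6 primitive endoderm markers summed to 227 to 251 CPM in wild-type siGLO, 18.9 to 30.5 in *Stag1*-/-, 41.9 to 67 in *Stag2*-/- and 49.6 to 65.1 in *Stag2*-/- siStag1. The 6 trophoblast markers summed to 92.8 to 135, 204 to 345, 41.4 to 83.1 and 37.9 to 84.6 CPM in the same order, and the 7 markers of 2-cell-like cells to 11.4 to 43.2, 0.503 to 2.03, 7.24 to 15.9 and 11.2 to 19.2. In wild-type siStag1 the sums of these other lists overlapped those of wild-type siGLO. The 6 mesoderm markers stayed between 13.2 and 58.7 CPM. The part of these cell states in the results below was not tested, and in bulk RNA fewer cells of a type and less RNA per cell cannot be told apart.

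The members leaned lower in the *Stag1*-/- clone and higher in the *Stag2*-/- clone. In *Stag1*-/- cells 43 members differed from wild-type siGLO at an adjusted p under 0.1, 16 higher and 27 lower, which is 15% of the members against 20% of all genes tested. Of all genes, 10.1% were called higher and 9.93% lower. The *Stag2*-/- cells had 53 members called, 41 higher and 12 lower (18.5% against 28.3% of all genes, which divide into 13.9% higher and 14.4% lower). For *Stag2*-/- siStag1 cells the count was 118, 88 higher and 30 lower (41.1% against 43.9%, divided into 22.6% higher and 21.3% lower). The share of members called was thus below or near that of all genes in each case, while their direction was uneven. The median log2 fold change of the members was −0.08 in *Stag1*-/-, 0.10 in *Stag2*-/- and 0.15 in *Stag2*-/- siStag1, against −0.01, 0.01 and 0.01 over all genes tested. These 3 comparisons share the wild-type siGLO libraries. The replicates of 84 members did not overlap between *Stag1*-/- and wild-type siGLO (29 higher, 55 lower), against 31.7% of all genes. For *Stag2*-/- this held for 81 members (57 higher, 24 lower) against 35.7%, and for *Stag2*-/- siStag1 for 121 (84 higher, 37 lower) against 47.3%. Without the 5 members that reached the limit through *Stag2*-/- libraries, the members called were 15 higher and 26 lower in *Stag1*-/-, 37 higher and 12 lower in *Stag2*-/-, and 84 higher and 30 lower in *Stag2*-/- siStag1. Without the 13 members under 50 counts in a condition, the counts were 14 higher and 25 lower in *Stag1*-/-, 34 higher and 12 lower in *Stag2*-/-, and 81 higher and 30 lower in *Stag2*-/- siStag1. Across the 5 conditions jointly, 124 members (43.2%) differed, against 50.7% of all genes. The median size of a called change was 0.56, 0.47 and 0.53 on the log2 scale in the 3 comparisons, against 0.62, 0.61 and 0.67 over all genes called. A log2 change of 1 in either direction was passed by 2, 7 and 14 called members (0.697%, 2.44% and 4.88%), against 5.71%, 8.02% and 14.5% of all genes. Without the 5 members named above these were 1, 3 and 10 members.

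**Figure D1:**
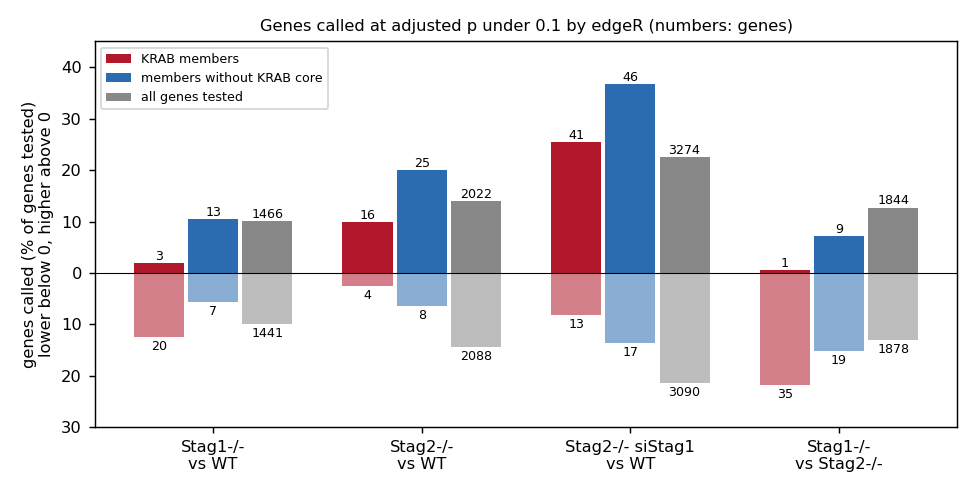
Share of genes called by edgeR at an adjusted p under 0.1, in percent of the genes tested, for KRAB members (161), members without the KRAB core (125) and all genes tested (14508). Bars above 0 are genes called higher and paler bars below 0 genes called lower in the condition named first, with the number of genes on each bar; against *Stag2*-/- cells, 35 KRAB members were lower and 1 higher in *Stag1*-/-.

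Libraries with the same replicate number varied together within these comparisons, though not in every pair of the 15 libraries to which a block was fitted. With that number as a block 77 members were called in *Stag1*-/- (27 higher, 50 lower), against 30.6% of all genes (15.3% each way). In *Stag2*-/- 85 were called (62 higher, 23 lower), against 39.4% (19.9% higher, 19.6% lower). The count in *Stag1*-/- was 28, 24 and 23 without wild-type siGLO replicate 1, wild-type siGLO replicate 2 and *Stag1*-/- replicate 1. The *Stag2*-/- count was 28, 30 and 33 without wild-type siGLO replicate 2, wild-type siGLO replicate 3 and *Stag2*-/- replicate 2. In those 3 fits of *Stag1*-/- the members divided into 11 higher and 17 lower, 8 and 16, and 8 and 15, while 6.44% to 7.26% of all genes were higher and 6.56% to 7.59% lower. In the 3 fits of *Stag2*-/- they divided into 21 higher and 7 lower, 23 and 7, and 25 and 8, while 8.06% to 9.97% of all genes were higher and 9.07% to 10.2% lower.

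KRAB members had no larger share of calls in *Stag1*-/- cells than all genes, but the calls were on 1 side. Of the 161 KRAB members, 3 were higher and 20 lower in *Stag1*-/- (14.3% called, against 20% of all genes, which divide evenly), with a median log2 fold change of −0.14 and a range from the lower to the upper quartile of −0.27 to 0.02. Of the 125 members without the core, 13 were higher and 7 lower (16%), with a median of 0.04. For *Stag2*-/- cells 16 KRAB members were higher and 4 lower (12.4%, against 28.3% of all genes, median 0.06), and 25 of the others were higher and 8 lower (26.4%, median 0.11). In *Stag2*-/- siStag1 cells the medians were 0.15 in both classes, with 41 KRAB members higher and 13 lower (33.5%, against 43.9% of all genes), and 46 of the others higher and 17 lower (50.4%). Without the 5 members, KRAB calls were 3 higher and 20 lower, 15 and 4, and 40 and 13, and those of the others 12 and 6, 22 and 8, and 43 and 17. The difference between the classes was not tested, since members are not replicates of a condition. With the replicate block, 35 KRAB members were lower and 5 higher in *Stag1*-/-, and 24 were higher and 8 lower in *Stag2*-/-. Without wild-type siGLO replicate 1, wild-type siGLO replicate 2 and *Stag1*-/- replicate 1 in turn, 10, 12 and 11 KRAB members were lower in *Stag1*-/-. Without wild-type siGLO replicate 2, wild-type siGLO replicate 3 and *Stag2*-/- replicate 2, 7, 7 and 9 were higher in *Stag2*-/-.

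The size of the KRAB shift differed between libraries. Relative to the mean of the wild-type siGLO libraries, the median KRAB member stood at 0.09, 0.01 and −0.10 on the log2 scale in wild-type siGLO replicates 1, 2 and 3, and at −0.28, −0.02 and −0.16 in *Stag1*-/-. It stood at 0.02, 0.11 and −0.01 in *Stag2*-/- and at 0.05, 0.17 and 0.19 in *Stag2*-/- siStag1. The KRAB medians of wild-type siGLO therefore overlapped those of each of these conditions, and replicate 1 of *Stag1*-/- was the lowest of all. Members without the core stood at 0.01, −0.00 and −0.01 in wild-type siGLO, at 0.10, 0.11 and 0.10 in *Stag2*-/- and at 0.17, 0.16 and 0.19 in *Stag2*-/- siStag1, and these 3 groups did not overlap. In *Stag1*-/- they stood at 0.08, 0.05 and 0.01, which overlapped wild-type siGLO. Compared within a replicate number, the KRAB median in *Stag1*-/- against wild-type siGLO was −0.37 for number 1, −0.04 for number 2 and −0.08 for number 3. Without the 5 libraries numbered 1, the median over all members was −0.01 in *Stag1*-/-, and the KRAB members called were 13 lower and 4 higher, with 9.43% of all genes lower and 9.03% higher.

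**Figure D2:**
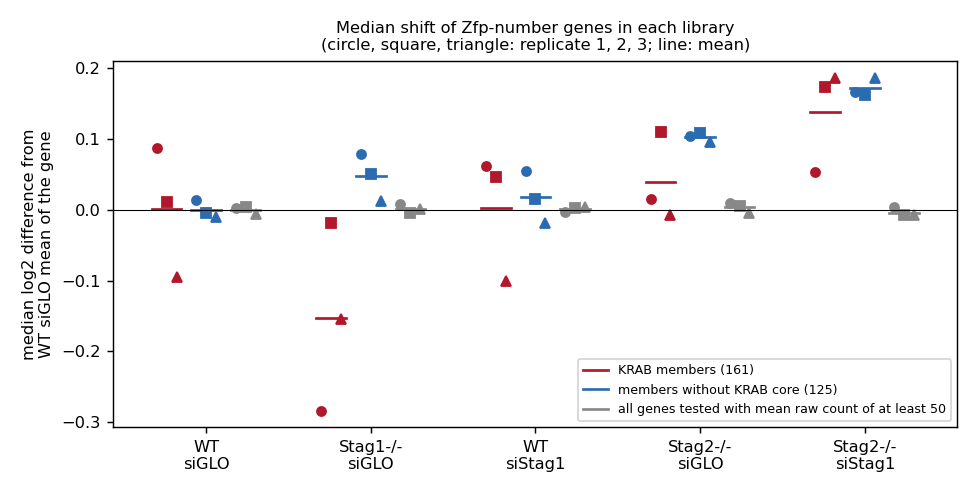
Median log2 difference from the wild-type siGLO mean (vertical axis) in each of the 15 libraries, for KRAB members, members without the KRAB core and all genes tested with a mean raw count of at least 50; symbols mark replicates 1, 2 and 3 and lines the mean of 3. The gray medians stay near 0 in every library, the KRAB median of *Stag1*-/- replicate 1 is lowest at −0.28, and members without the core lie above wild-type siGLO in all *Stag2*-/- libraries.

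The clones were also compared with each other, which does not use the wild-type libraries for the difference. Between *Stag1*-/- and *Stag2*-/- 64 members were called, 10 higher and 54 lower in *Stag1*-/-, or 22.3% against 25.7% of all genes (12.7% higher, 12.9% lower). The median was −0.14, against −0.01 to −0.00 within each replicate number over all genes with a mean raw count of at least 50. Of the KRAB members 35 were lower and 1 was higher in *Stag1*-/-, and of the others 19 were lower and 9 higher. Within replicate numbers 1, 2 and 3 the KRAB median was −0.26, −0.16 and −0.19, so that the shift had the same direction in each pair of libraries. The median of members without the core was −0.02, −0.08 and −0.11. Without the 5 members that reached the limit through *Stag2*-/- libraries, 10 were higher and 50 lower, of which 1 and 34 were KRAB members, and without the 13 under 50 counts in a condition 10 and 49. With the replicate block 96 members were called (15 higher, 81 lower) against 37.3% of all genes (18.1% higher, 19.2% lower). Without *Stag2*-/- replicate 2, 41 members were called, with 20 KRAB members lower and 1 higher, against 18.9% of all genes. Replicates of the clones did not overlap for 81 members, 14 higher and 67 lower in *Stag1*-/-, against 31% of all genes without overlap.

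KRAB members with the largest differences between the clones were spread over several chromosomes. *Zfp951* on chromosome 5 had 30.5, 34.1 and 34.4 normalized counts in *Stag1*-/- and 160, 93.8 and 125 in *Stag2*-/- (log2 fold change −1.93 ± 0.33 (SE)), and is one of the members that reached the limit through *Stag2*-/- libraries. *Zfp946* on chromosome 17 followed with −1.61 ± 0.31 (adjusted p = 0.00203, edgeR's quasi-likelihood test). *Zfp612*, *Zfp40* and *Zfp936* differed by −1.34, −1.27 and −1.16. In the other direction, *Zfp710* was higher in *Stag1*-/- than in *Stag2*-/- by 0.90 ± 0.09 (adjusted p = 6.87e-06), *Zfp36* by 0.81 ± 0.27 (adjusted p = 0.045) and *Zfp704* by 0.53 ± 0.16 (adjusted p = 0.0317). The call of *Zfp36* was lost without *Stag1*-/- replicate 2 or 3 or *Stag2*-/- replicate 2 (adjusted p up to 0.154), and that of *Zfp704* without *Stag2*-/- replicate 1 (0.112). When KRAB members are divided by the number of their fingers, the median difference between the clones was −0.10 for 44 members with 0 to 9 fingers, −0.23 for 48 with 10 to 12, −0.15 for 36 with 13 to 15 and −0.29 for 33 with 16 or more. The medians were below 0 in each of these groups but did not follow finger number step by step.

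Among members known for pluripotency, imprinting or retroelement silencing, *Zfp57* changed most. ZFP57 is a KRAB protein that binds methylated imprinting control regions and protects their methylation in the early embryo and in mESCs. Its normalized counts were 6794, 6504 and 5893 in wild-type siGLO, 4539, 3788 and 4706 in *Stag1*-/-, 5971, 3601 and 4371 in *Stag2*-/-, 5856, 5827 and 5835 in wild-type siStag1, and 1941, 1688 and 1672 in *Stag2*-/- siStag1. All *Stag2*-/- siStag1 libraries were below every other library, and only in *Stag2*-/- siGLO did a library (replicate 1) reach into the wild-type siGLO range. The log2 fold change against wild-type siGLO was −0.56 ± 0.14 in *Stag1*-/- (adjusted p = 0.0129), −0.46 ± 0.14 in *Stag2*-/- (adjusted p = 0.0276) and −1.86 ± 0.14 in *Stag2*-/- siStag1 (adjusted p = 1.25e-07). The call in *Stag2*-/- was lost without *Stag2*-/- replicate 2 (−0.31, adjusted p = 0.126). Within the *Stag2*-/- clone siStag1 lowered it by −1.40 ± 0.14 (adjusted p = 2.5e-05), whereas the value in wild-type cells was −0.13 ± 0.14 (adjusted p = 0.999). The difference between these siStag1 effects was −1.26 on the log2 scale (adjusted p = 0.0145), and *Zfp57* was the 1 member called in this comparison, in which 0.159% of all genes were called (0.0207% with a positive and 0.138% with a negative difference). Per kilobase and 1e6 counts its level went from 97.1 ± 7.0 (SD, n = 3) in wild-type siGLO to 26.8 ± 2.3 in *Stag2*-/- siStag1, in the same libraries in which the summed mESC markers were lowest.

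*Zfp445*, another KRAB gene with a known role at imprinting control regions, had 2419, 2166 and 2071 counts in wild-type siGLO, 1778, 1936 and 2049 in *Stag1*-/-, 2839, 2362 and 2362 in *Stag2*-/- and 2900, 2590 and 2676 in *Stag2*-/- siStag1. The *Stag1*-/- libraries were below and the *Stag2*-/- siStag1 libraries above the wild-type range, and *Stag2*-/- overlapped it. It was higher in *Stag2*-/- siStag1 (0.29 ± 0.10, adjusted p = 0.0253), and its values in *Stag1*-/- and *Stag2*-/- were −0.21 and 0.18 (adjusted p = 0.175 and 0.192, and 0.0845 and 0.0958 with the replicate block, edgeR). Without wild-type siGLO replicate 3 its adjusted p was 0.102. Of the 15 members on this list, 2 were lower and 0 higher in each single knockout, and 4 were lower and 4 higher in *Stag2*-/- siStag1. Of all genes, 9.93%, 14.4% and 21.3% were lower and 10.1%, 13.9% and 22.6% higher in the 3 comparisons. The replicate block made these 5 lower and 2 higher in *Stag1*-/- and 3 lower and 2 higher in *Stag2*-/-, with 30.6% and 39.4% of all genes called. *Zfp819*, for example, was then lower in *Stag1*-/- (−0.71, adjusted p = 0.000294, edgeR), where its value without the block was −0.69 (adjusted p = 0.195). The 2 that were lower throughout were *Zfp57* and *Zfp143*, whose product activates promoters and is found at the anchors of chromatin loops.

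*Zfp143* had 785, 837 and 860 counts in wild-type siGLO, 672, 703 and 591 in *Stag1*-/-, 675, 634 and 659 in *Stag2*-/- and 610, 623 and 575 in *Stag2*-/- siStag1. None of the 9 libraries that lack a STAG protein by knockout reached the wild-type siGLO range. The changes were −0.34 ± 0.09 (adjusted p = 0.0208), −0.34 ± 0.09 (adjusted p = 0.0166) and −0.46 ± 0.09 (adjusted p = 0.00105).

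*Zfp296*, expressed with the pluripotency network, had 571, 468 and 487 counts in wild-type siGLO, 564, 561 and 548 in *Stag2*-/- siGLO, 371, 447 and 373 in wild-type siStag1 and 372, 264 and 272 in *Stag2*-/- siStag1. It was lower in *Stag2*-/- siStag1 than in *Stag2*-/- siGLO by −0.88 ± 0.14 (adjusted p = 0.00225) and than in wild-type siGLO by −0.75 ± 0.14 (adjusted p = 0.000813), and the value in wild-type siStag1 was −0.36 ± 0.14 (adjusted p = 0.64). *Zfp809*, which recruits TRIM28 to retroviral DNA, rose by 0.53 ± 0.15 in *Stag2*-/- siStag1 (adjusted p = 0.0122), and *Zfp932*, a KRAB gene with a known role at endogenous retroviruses, by 0.51 ± 0.14 (adjusted p = 0.00874). *Zfp217* was higher (0.24 ± 0.10, adjusted p = 0.0686) and *Zfp819* lower (−0.77 ± 0.34, adjusted p = 0.0869) in the same cells, and each lost its call in 4 of the 15 fits without 1 library. For *Zfp217* these left out wild-type siGLO replicates 1 and 2 and *Stag2*-/- siStag1 replicates 2 and 3, with a highest adjusted p of 0.242. For *Zfp819* they left out wild-type siGLO replicate 1, wild-type siStag1 replicate 2 and *Stag2*-/- siStag1 replicates 2 and 3, with a highest adjusted p of 0.322. The other 7 members of the list (*Zfp281*, *Zfp462*, *Zfp708*, *Zfp961*, *Zfp568*, *Zfp637* and *Zfp91*) passed the test in none of the comparisons with wild-type siGLO without the block. With the block, *Zfp568* was higher in *Stag1*-/- (0.18, adjusted p = 0.0555) and lower in *Stag2*-/- (−0.21, adjusted p = 0.0261), *Zfp462* was higher in *Stag2*-/- (0.18, adjusted p = 0.0501) and *Zfp961* lower in *Stag1*-/- (−0.26, adjusted p = 0.0799).

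The corepressor genes through which KRAB proteins act were counted in the same way. Of 24 tested genes for the KRAB corepressor and heterochromatin, 4 were higher and 1 lower in *Stag1*-/-, 8 higher and 0 lower in *Stag2*-/-, and 10 higher and 2 lower in *Stag2*-/- siStag1. Among all genes 10.1%, 13.9% and 22.6% were higher and 9.93%, 14.4% and 21.3% lower. The log2 fold changes of *Trim28*, the corepressor itself, were 0.09, 0.23 and 0.05 (adjusted p = 0.692, 0.185 and 0.79), and those of *Setdb1*, which methylates histone H3 at repressed sites, were −0.03, 0.05 and −0.08 (adjusted p = 0.876, 0.667 and 0.446).

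Developmental regulators and cofactors among the members included the member with the largest change. Of 12 such members, 4 were higher and 0 lower in *Stag2*-/-, 5 higher and 2 lower in *Stag2*-/- siStag1, and 0 higher and 1 lower in *Stag1*-/-. Of all genes, 13.9% were higher and 14.4% lower in *Stag2*-/-, 22.6% and 21.3% in *Stag2*-/- siStag1, and 10.1% and 9.93% in *Stag1*-/-. With the replicate block 7 of the 12 were higher and 1 (*Zfp516*) lower in *Stag2*-/- (19.9% and 19.6% of all genes), and 2 higher and 1 lower in *Stag1*-/- (15.3% each way). Without *Zfp521*, which reached the count limit through *Stag2*-/- libraries, 3 were higher and 0 lower in *Stag2*-/- (6 and 1 with the block), and 4 higher and 2 lower in *Stag2*-/- siStag1. The largest change of any member was that of *Zfp608*, a gene of vertebrate development and the paralog of *Zfp609*. It had 96.3, 76.2 and 102 counts in wild-type siGLO, 124, 134 and 134 in *Stag1*-/-, 154, 164 and 134 in wild-type siStag1, 324, 795 and 720 in *Stag2*-/-, and 678, 990 and 1024 in *Stag2*-/- siStag1. All *Stag2*-/- libraries were above all others, with replicate 1 lowest in both conditions. The change was 2.74 ± 0.27 in *Stag2*-/- (adjusted p = 6.93e-06) and 3.29 ± 0.27 in *Stag2*-/- siStag1 (adjusted p = 2.35e-07).

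*Zfp609*, which encodes a partner of the cohesin loader NIPBL in neural progenitors, had 2407, 2483 and 2816 counts in wild-type siGLO, 3131, 3265 and 3328 in *Stag2*-/- and 3777, 3700 and 4170 in *Stag2*-/- siStag1. The groups did not overlap, and the changes were 0.34 ± 0.08 (adjusted p = 0.00827) and 0.60 ± 0.08 (adjusted p = 3.49e-05). *Zfp521*, which encodes a cofactor of EBF proteins in neural and blood development, had 56.1, 43.7 and 58.1 counts in wild-type siGLO and 45.5, 191 and 203 in *Stag2*-/-. Replicate 1 stayed within the wild-type range, and the difference was 1.47 ± 0.50. In *Stag2*-/- siStag1, with 61.1, 220 and 266 counts, it was 1.79 ± 0.50, and both are values of a member that reached the count limit through these libraries. In both conditions replicates 2 and 3 were higher than replicate 1 for *Zfp521* and *Zfp608*, and the neural progenitor markers were higher in these cells, with 90.4 to 239 CPM.

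*Zfp423*, the close relative of *Zfp521*, rose by 0.79 ± 0.23 in *Stag2*-/- siStag1 (adjusted p = 0.0122), and *Zfp827* by 0.54 ± 0.14 (adjusted p = 0.00695). *Zfp516* (−0.44 ± 0.16, adjusted p = 0.0468) and *Zfp64* (−0.26 ± 0.10, adjusted p = 0.0548) were lower there. *Zfp516* lost the call without wild-type siGLO replicate 3 or *Stag2*-/- siStag1 replicate 1 (adjusted p up to 0.171), and *Zfp64* without wild-type siGLO replicate 1 or *Stag2*-/- siStag1 replicate 2 or 3 (up to 0.138). *Zfp131* was higher in *Stag2*-/- (0.31 ± 0.11, adjusted p = 0.0652), a call lost without wild-type siGLO replicate 2 or 3 or *Stag2*-/- replicate 1 or 2 (up to 0.267). *Zfp148*, which encodes a factor that binds GC-rich promoters, was the 1 listed member called in *Stag1*-/-, at −0.36 ± 0.09 (adjusted p = 0.0164).

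Of 10 members with RNA, ribosome or spindle functions, 1 was higher in *Stag1*-/-, 1 lower in *Stag2*-/-, and 1 higher and 3 lower in *Stag2*-/- siStag1, where 20%, 28.3% and 43.9% of all genes were called in the same order. The replicate block gave 2 higher in *Stag1*-/-, with 30.6% of all genes called. The one higher in *Stag1*-/- without it was *Zfp36*, which encodes tristetraprolin, a factor that binds AU-rich elements and speeds mRNA decay. Its counts were 129, 307 and 258 in wild-type siGLO and 323, 416 and 515 in *Stag1*-/-, close but not overlapping (0.86 ± 0.27, adjusted p = 0.042). Without wild-type siGLO replicate 1 or *Stag1*-/- replicate 3 the call was lost (adjusted p = 0.148 and 0.145). *Zfp106*, the member with the highest level, encodes an RNA-binding protein and had 17530, 16010 and 15250 counts in wild-type siGLO and 13430, 12450 and 12080 in *Stag2*-/- siStag1 (−0.36 ± 0.10, adjusted p = 0.011). Its value in *Stag2*-/- was −0.24 ± 0.10 at an adjusted p of 0.0997, and 8 of the 15 fits without 1 library put it above 0.1, up to 0.279. Exons of *Zfp106* overlap exons of a gene on the other strand over 2719 bases, and the strand setting of the counting is not given in the sources used here. *Zfp598*, whose product marks collided ribosomes, was lower in *Stag2*-/- siStag1 (−0.26 ± 0.10, adjusted p = 0.04), *Zfp706* was also lower (−0.19 ± 0.07, adjusted p = 0.0485), and *Zfp326*, of a complex that acts in transcript elongation and splicing, was higher (0.33 ± 0.12, adjusted p = 0.0369). The calls of *Zfp598* and *Zfp706* were lost without wild-type siGLO replicate 2 or *Stag2*-/- siStag1 replicate 2 or 3 (adjusted p up to 0.141 and 0.195), and that of *Zfp598* also without wild-type siGLO replicate 3.

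Beyond *Zfp608*, the largest rises in *Stag2*-/- cells were those of *Zfp946* and *Zfp422*, among called members whose replicates did not overlap and that did not need these libraries to reach the count limit. *Zfp618*, *Zfp467* and *Zfp951*, which did, are described beside them without a test. *Zfp946*, a KRAB gene, had 107, 106 and 114 counts in wild-type siGLO, 70.9, 111 and 139 in *Stag1*-/-, 160, 414 and 413 in *Stag2*-/- and 213, 379 and 318 in *Stag2*-/- siStag1. The *Stag2*-/- libraries were above all others, with replicate 1 again lowest (1.59 ± 0.31, adjusted p = 0.00215, and 1.48 ± 0.31, adjusted p = 0.00158). *Zfp618* had 33.7, 29.5 and 31 counts in wild-type siGLO, 50.2, 66.2 and 47.9 in *Stag1*-/-, 58.2, 101 and 102 in *Stag2*-/- and 104, 160 and 177 in *Stag2*-/- siStag1.

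For *Zfp618*, whose product binds the ring finger protein UHRF2, the log2 difference from wild-type siGLO was 0.80 ± 0.27 in *Stag1*-/-, 1.47 ± 0.27 in *Stag2*-/-, 2.22 ± 0.27 in *Stag2*-/- siStag1 and 0.34 ± 0.28 in wild-type siStag1. The libraries of the 3 knockout conditions were all above those of wild-type siGLO, *Stag1*-/- and *Stag2*-/- overlapped, and these values too belong to a member that reached the count limit through *Stag2*-/- libraries. *Zfp422* went from 265, 172 and 160 counts in wild-type siGLO to 390, 455 and 477 in *Stag2*-/- (1.15 ± 0.18, adjusted p = 0.000311) and showed the same size of rise with siStag1 (1.15 ± 0.18, adjusted p = 0.00011). *Zfp467*, just above the limit on the mean count, had 36.5, 27.4 and 30 counts in wild-type siGLO, 18.7, 11.7 and 8.14 in *Stag1*-/- and 48.7, 95.9 and 99.2 in *Stag2*-/-. The log2 difference was −1.29 ± 0.38 in *Stag1*-/-, 1.37 ± 0.33 in *Stag2*-/- and −2.66 ± 0.36 between the clones, and without the *Stag2*-/- libraries its mean raw count of 29.7 would have left it out. The difference of *Zfp951* in *Stag2*-/- was 1.07 ± 0.31, with a mean raw count of 49.9 without these libraries.

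**Figure D3:**
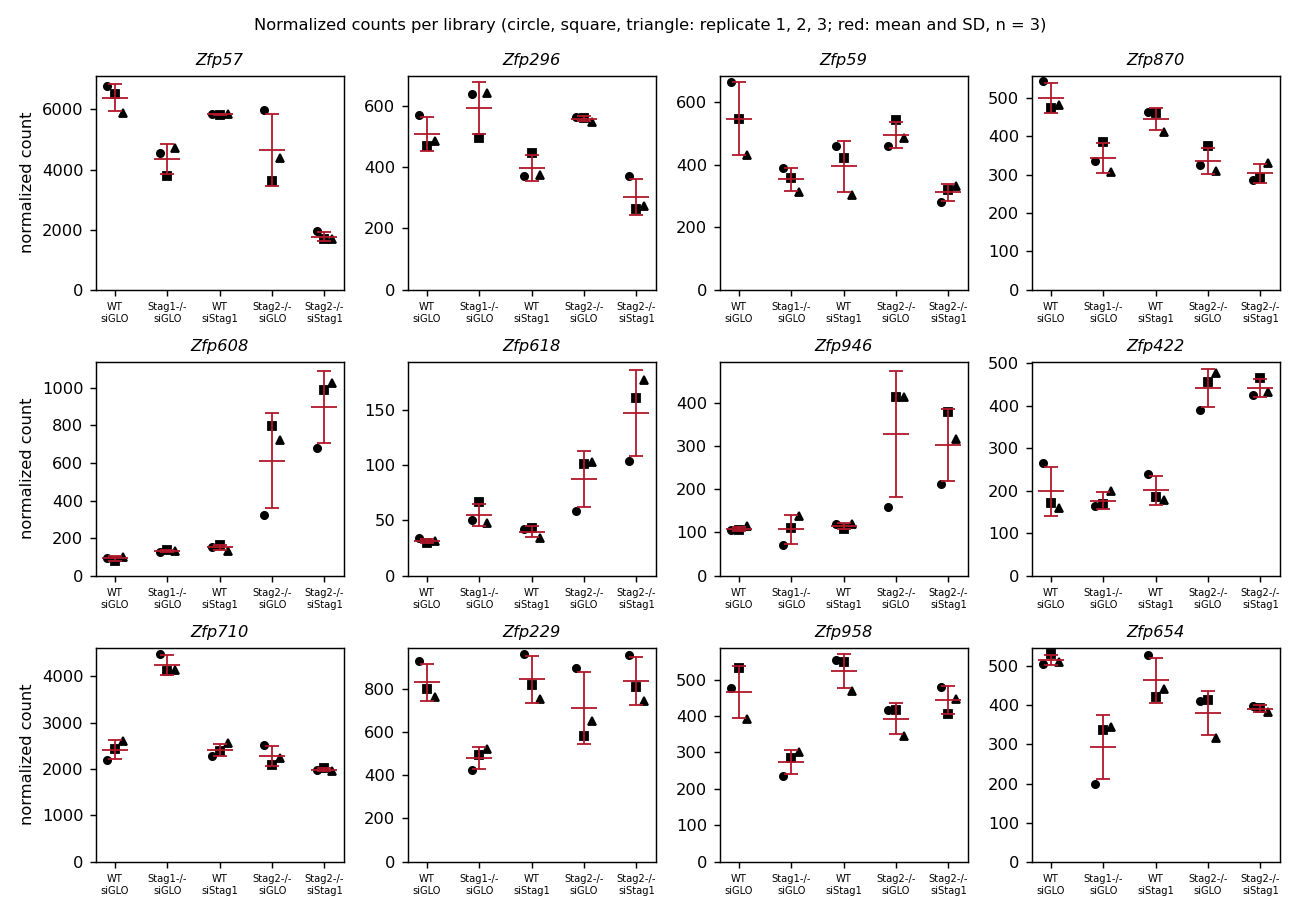
Normalized counts (vertical axes, from 0) of 12 members in the 15 libraries, by condition; black symbols mark replicates 1, 2 and 3 and red lines the mean and SD of 3. *Zfp57* is lowest in *Stag2*-/- siStag1 (1672 to 1941), *Zfp608* and *Zfp946* are highest in both *Stag2*-/- conditions, and *Zfp710* is highest in *Stag1*-/- (4110 to 4489).

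The largest falls in *Stag2*-/- cells were smaller. *Zfp655* had 1500, 1549 and 1677 counts in wild-type siGLO and 863, 1174 and 1059 in *Stag2*-/- (−0.61 ± 0.16, adjusted p = 0.0134). *Zfp870*, a KRAB gene, had 545, 475 and 482 in wild-type siGLO, 337, 386 and 307 in *Stag1*-/-, 325, 374 and 309 in *Stag2*-/- and 287, 292 and 332 in *Stag2*-/- siStag1. It fell by 0.54, 0.57 and 0.72 on the log2 scale in the 3 conditions (adjusted p = 0.00573, 0.00323 and 0.000223), and no library of these conditions reached the wild-type siGLO range. Its exons overlap another gene's over 438 bases. *Zfp952*, *Zfp654*, *Zfp704* and *Zfp449* were lower by −0.47 to −0.42 at adjusted p from 0.0611 to 0.0833, and the call of each was lost in 4 or 5 of the 15 fits without 1 library, wild-type siGLO replicates 2 and 3 among them for all 4. Exons of *Zfp704* overlap another gene's over 2525 bases. The other libraries were wild-type siGLO replicate 1 (*Zfp952*, *Zfp654*), wild-type siStag1 replicate 2 (*Zfp449*) and *Stag2*-/- replicates 1 (*Zfp704*, *Zfp449*), 2 (*Zfp952*, *Zfp704*, *Zfp449*) and 3 (*Zfp952*, *Zfp654*).

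In *Stag1*-/- cells *Zfp710* stood out among the rises. It had 4489, 4110 and 4147 counts, against 2202, 2435 and 2609 in wild-type siGLO, 2288, 2379 and 2557 in wild-type siStag1, 2512, 2078 and 2237 in *Stag2*-/- and 1977, 2031 and 1957 in *Stag2*-/- siStag1. The *Stag1*-/- libraries were all above the other 12 (0.81 ± 0.09 (SE), adjusted p = 1.37e-05). It was lower in *Stag2*-/- siStag1 than in wild-type siGLO by −0.28 ± 0.09 (adjusted p = 0.0185), and siStag1 in wild-type cells gave a difference of −0.00 ± 0.09 (adjusted p = 0.999). *Zfp287* and *Zfp647* rose by 1.03 ± 0.28 (adjusted p = 0.0232) and 0.72 ± 0.17 (adjusted p = 0.00965). The mean raw count of *Zfp287* was 43.3 in wild-type siGLO, its lowest condition. It was therefore named through its higher *Stag1*-/- counts, and its value is best read as a description. *Zfp628* (0.81) and *Zfp768* (0.72) were called at adjusted p = 0.0621 and 0.0377. The call of *Zfp628* was lost without wild-type siGLO replicate 2 or 3 or *Stag1*-/- replicate 1 (up to 0.303) and that of *Zfp768* without wild-type siGLO replicate 3 or *Stag1*-/- replicate 3 (up to 0.122).

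Among called members with no overlap of replicates and a mean of at least 50 normalized counts over both groups compared, 5 of the 6 largest falls in *Stag1*-/- cells were in KRAB genes. KRAB genes were 161 of the 287 members and most of the members called lower, so this count restates the division given above. *Zfp229* had 928, 800 and 763 counts in wild-type siGLO and 423, 494 and 520 in *Stag1*-/- (−0.79 ± 0.15, adjusted p = 0.00248), whereas *Stag2*-/- siStag1 had 959, 811 and 742. *Zfp958* went from 477, 531 and 391 to 235, 284 and 300 (−0.77 ± 0.14, adjusted p = 0.00131). Both had values near the wild-type level in cells that lacked STAG2 and received siStag1 (0.01 and −0.07). *Zfp617* fell by 0.61 ± 0.15 (adjusted p = 0.00999), *Zfp59* by 0.63 ± 0.17 (adjusted p = 0.0175) and *Zfp936* by 0.88 ± 0.27 (adjusted p = 0.0399). *Zfp958* and *Zfp617* lie on chromosome 8, whose genes as a whole had lower values in this clone, as given below. The part of that shift in these falls was not tested. *Zfp936* varied from 354 to 829 counts among wild-type siGLO libraries, and its call was lost without wild-type siGLO replicate 1 (−0.46, adjusted p = 0.252) or *Stag1*-/- replicate 3 (adjusted p = 0.105). *Zfp654*, the one without a KRAB core, went from 506, 531 and 511 counts to 200, 338 and 344 (−0.81 ± 0.17, adjusted p = 0.00406). Of the stretches of 150 bases in their transcripts, 23.8% of *Zfp617*, 18% of *Zfp59* and 7.9% of *Zfp932* also occur in transcripts of another gene. For *Zfp106* and *Zfp704*, whose exons overlap other genes, the shares were 21.8% and 15.6%. Reads that map to several places were a separate summary line and are not in the gene counts.

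Knockdown of *Stag1* in wild-type cells gave no call among the members in edgeR. It called 0 members against 0.248% of all genes (0.103% higher, 0.145% lower). At an unadjusted p under 0.05 there were 9 members, against 6.36% of all genes, and DESeq2 called 1, the KRAB gene *Zfp777*. *Zfp777*, named here after its values were seen, had 488, 473 and 522 counts in wild-type siGLO and 600, 598 and 639 in wild-type siStag1, which do not overlap (0.31, adjusted p = 0.287 in edgeR, 0.0923 in edgeR with the replicate block and 0.0716 in DESeq2). It was also higher in *Stag1*-/- (0.35, adjusted p = 0.0135), in *Stag2*-/- (0.40, adjusted p = 0.00452) and in *Stag2*-/- siStag1 (0.49, adjusted p = 0.000359). With the replicate block 1 member was called, against 1.63% of all genes. Replicates did not overlap for 27 members (14 higher, 13 lower), or 9.41%, against 15.5% of all genes.

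The same siRNA in *Stag2*-/- cells changed 8 members, or 2.79% against 6.37% of all genes, 3 higher and 5 lower (2.98% and 3.39% of all genes). Replicates did not overlap for 45 members (32 higher, 13 lower) against 19.3% of all genes. The lower ones were *Zfp57*, *Zfp296*, *Zfp59*, *Zfp459* and *Zfp473*, and the higher ones *Zfp185* (0.44 ± 0.13, adjusted p = 0.0667), *Zfp37* (0.44 ± 0.14, adjusted p = 0.0978) and *Zfp609* (0.26 ± 0.08, adjusted p = 0.0866). *Zfp185* encodes an actin-associated LIM protein and not a C2H2 protein, with 360, 405 and 398 counts in *Stag2*-/- siGLO and 516, 534 and 532 with siStag1. *Zfp59* fell by 0.67 ± 0.17 (adjusted p = 0.0344), from 459, 542 and 484 counts to 282, 319 and 332, and had an adjusted p of 0.113 without *Stag2*-/- siGLO replicate 2. With the replicate block 26 members were called, 19 higher and 7 lower, against 14.1% of all genes (7.22% higher, 6.91% lower). The higher calls were thus the larger part with the block and the smaller part without it. The count was 5, 3, 2, 3 and 3 without wild-type siGLO replicate 2, *Stag2*-/- siGLO replicate 1, *Stag2*-/- siGLO replicate 2, *Stag2*-/- siStag1 replicate 2 and *Stag2*-/- siStag1 replicate 3, and 18 without *Stag2*-/- siStag1 replicate 1. Of all genes, 2.83% to 5.27% were called in the former 5 fits and 10.1% in the last. The 3 members called higher were each lost in at least 5 of the fits without 1 library, which included those without *Stag2*-/- siGLO replicates 1, 2 and 3 and *Stag2*-/- siStag1 replicates 2 and 3. *Zfp37* and *Zfp609* were lost in 13 and 9 of these fits, among them some that left out a library of a condition not compared.

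Of the 287 members, 152 lay in 24 clusters of at least 3 members with starts no more than 500000 bases apart (mm10), and the clusters differed in direction. Beside the counts in clusters, 10.1%, 13.9% and 22.6% of all genes were higher and 9.93%, 14.4% and 21.3% lower in *Stag1*-/-, *Stag2*-/- and *Stag2*-/- siStag1. Clusters have few members, and their counts are a description. Chromosome 7 held 72 members, chromosome 17 held 36, chromosome 13 held 24 and chromosome 8 held 22. On chr17:32765496-33631779, a cluster of 11 members of which 10 are KRAB genes, 0 members had a value above 0 in *Stag1*-/- (median −0.31), 2 of them called lower. In *Stag2*-/- the median there was −0.13 and in *Stag2*-/- siStag1 0.06. On chr17:21008903-23599487, with 18 members including *Zfp229* and *Zfp946*, the median was −0.15 in *Stag1*-/- (2 lower, 0 higher), 0.14 in *Stag2*-/- (3 higher, 0 lower) and 0.18 in *Stag2*-/- siStag1 (4 higher, 0 lower), where 94.4% of its members were above 0. The cluster on chr6:47819266-48623227 held 10 members, among them *Zfp467* and *Zfp777*, with a median of 0.00 in *Stag1*-/-, 0.22 in *Stag2*-/- (4 higher) and 0.37 in *Stag2*-/- siStag1 (7 higher, 0 lower). Without *Zfp467* these were 0.21 (3 higher) and 0.32 (6 higher). *Zfp786* of this cluster, picked for its size, had 60.8, 40.7 and 36.8 counts in wild-type siGLO and 154, 104 and 107 in *Stag2*-/- siStag1 (1.40 ± 0.29, adjusted p = 0.00142).

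Clusters on chromosome 7 did not move as 1 block. On chr7:29768552-30169750, which has 14 members including *Zfp568* and *Zfp420*, the median in *Stag2*-/- siStag1 was −0.26 with 5 lower and 3 higher. *Zfp420* had 150, 150 and 170 counts in wild-type siGLO and 90.7, 94.6 and 78.9 in *Stag2*-/- siStag1 (−0.83 ± 0.23, adjusted p = 0.0101). *Zfp146*, a gene of the same cluster that was picked as its largest rise, changed by 0.49 (adjusted p = 0.00111). On chr7:127233061-127885996, 10 members, 6 of them without the KRAB core, had medians of 0.23, 0.22 and 0.31 in *Stag1*-/-, *Stag2*-/- and *Stag2*-/- siStag1, with 4, 3 and 4 called higher and 0 lower. On chr7:4915217-5053723 the 5 members, none with a KRAB core, were above 0 in all 3 comparisons (medians 0.35, 0.28 and 0.41), of which 1, 0 and 3 were called.

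On chromosome 8 the genes as a whole were shifted as well. The 5 members on chr8:69209038-69791178, all KRAB genes, had a median of −0.46 in *Stag1*-/-, and *Zfp930*, *Zfp868*, *Zfp869* and *Zfp866* were called lower, by −0.54 to −0.44. Across chromosome 8 the median of all 761 genes tested was −0.19 in *Stag1*-/-, −0.21 in *Stag2*-/- and −0.23 in *Stag2*-/- siStag1, and 0.00 in wild-type siStag1. The 22 members on this chromosome had medians of −0.14, 0.02 and 0.13 in the first 3, with 8 lower and 0 higher, 2 lower and 2 higher, and 2 lower and 7 higher. The part of the chromosome-wide shift in the members' values was not tested. Without members on chromosomes 8 and 15, 13 KRAB members were lower and 1 was higher in *Stag1*-/-.

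**Figure D4:**
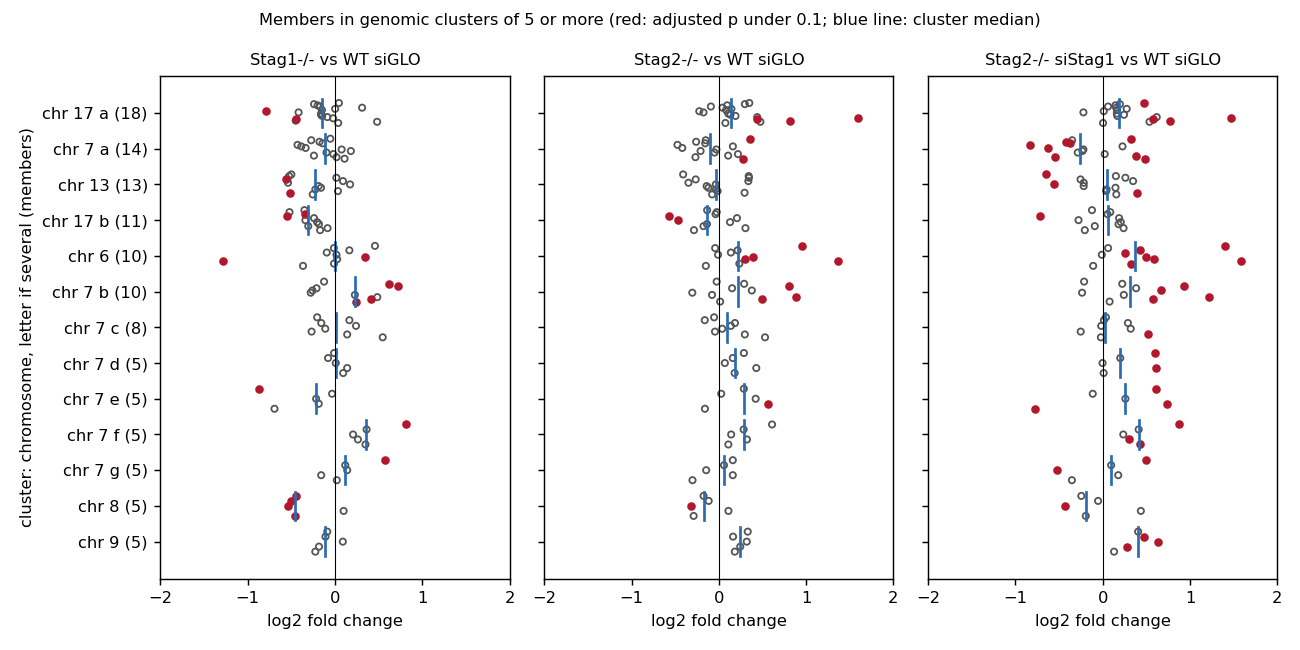
Log2 fold change (horizontal axis) of the members in each genomic cluster of 5 or more, with the chromosome and number of members on the vertical axis, for *Stag1*-/-, *Stag2*-/- and *Stag2*-/- siStag1 against wild-type siGLO; red points have an adjusted p under 0.1 and blue lines are cluster medians. In *Stag1*-/- the clusters chr 8 (median −0.46) and chr 17 b (−0.31) lie lowest, and in *Stag2*-/- siStag1 chr 7 f (0.41) and chr 6 (0.37) are among the highest.

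The promoters of members are poorer in CpG than those of other genes. RefSeq promoters (GRCm38.p6, from 250 bases before the start) were found for 236 members, 141 of them KRAB genes, and for 10611 genes tested. The median number of CpG dinucleotides was 15 for members and 11 for KRAB members, against 21 for all tested genes. The GC box GGGCGG, bound by SP and KLF factors, was present on either strand in 46.6% of member and 38.3% of KRAB promoters, against 64.9% of all. The NFY box CCAAT was present in 47.9%, 52.5% and 38.6%, the NRF1 motif in 9.3%, 6.4% and 13.1%, and the CTCF core in 1.7%, 1.4% and 2.8%. AGGCCT, the core bound by ZFX, was found in 11%, 9.9% and 10.8%, and TATAAA in 6.4%, 5% and 7.1%. A match is a description of the letters and not a site.

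The 250 bases before the start of *Zfp57* (chr17:37003416-37003665), *Zfp618* (chr4:62965317-62965566), *Zfp946* (chr17:22423952-22424201) and *Zfp710* (chr7:80024564-80024813), all on the plus strand, are given to show how different the promoters of members with unlike patterns are: *Zfp57* was lowest in *Stag2*-/- siStag1, *Zfp618* was above wild-type siGLO in each knockout condition, *Zfp946* was highest in both *Stag2*-/- conditions and *Zfp710* in *Stag1*-/-. GC boxes and CCAAT boxes on either strand are in capitals.
Zfp57: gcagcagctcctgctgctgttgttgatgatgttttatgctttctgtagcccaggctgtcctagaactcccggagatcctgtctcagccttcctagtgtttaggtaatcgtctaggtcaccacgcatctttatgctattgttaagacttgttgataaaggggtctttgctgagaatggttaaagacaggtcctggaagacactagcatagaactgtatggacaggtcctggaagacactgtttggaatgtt
Zfp618: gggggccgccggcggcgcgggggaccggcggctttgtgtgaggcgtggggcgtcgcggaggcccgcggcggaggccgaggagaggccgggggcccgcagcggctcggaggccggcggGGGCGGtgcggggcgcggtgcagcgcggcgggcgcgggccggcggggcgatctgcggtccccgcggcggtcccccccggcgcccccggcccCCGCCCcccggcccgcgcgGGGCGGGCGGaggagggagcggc
Zfp946: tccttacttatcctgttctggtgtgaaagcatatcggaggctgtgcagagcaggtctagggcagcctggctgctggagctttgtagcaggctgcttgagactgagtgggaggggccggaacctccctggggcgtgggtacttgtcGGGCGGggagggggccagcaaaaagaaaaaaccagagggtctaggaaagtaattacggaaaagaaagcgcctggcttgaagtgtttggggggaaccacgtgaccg
Zfp710: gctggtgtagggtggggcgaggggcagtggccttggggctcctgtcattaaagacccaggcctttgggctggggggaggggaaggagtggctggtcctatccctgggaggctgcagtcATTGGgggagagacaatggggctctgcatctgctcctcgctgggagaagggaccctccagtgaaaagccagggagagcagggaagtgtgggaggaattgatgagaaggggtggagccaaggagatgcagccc
*Zfp618* held 4 GC boxes and 48 CpG dinucleotides here. *Zfp946* held 1 GC box and 9 CpG, *Zfp710* 1 CCAAT box and 2 CpG, and *Zfp57* neither box and 3 CpG.

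Other zinc finger families were counted beside the same shares of all genes, 10.1% higher and 9.93% lower in *Stag1*-/-, 13.9% and 14.4% in *Stag2*-/-, and 22.6% and 21.3% in *Stag2*-/- siStag1. Of 23 Zscan and Zkscan genes, whose proteins carry a SCAN domain, 1 was higher and 7 lower in *Stag1*-/-, 1 higher and 3 lower in *Stag2*-/-, and 4 higher and 2 lower in *Stag2*-/- siStag1. The lower ones included the near-identical copies *Zscan4a*, *Zscan4c*, *Zscan4d* and *Zscan4e* in *Stag1*-/- (−4.74 to −3.68) and 3 of these in *Stag2*-/-, genes of the 2-cell state whose markers summed to 11.4 to 43.2 CPM in wild-type siGLO and 0.503 to 2.03 in *Stag1*-/-. Of 38 Zbtb genes the counts were 3 higher and 4 lower, 7 and 6, and 8 and 8. Of 20 Klf and Sp genes, 1 was higher and 4 lower, 4 and 8, and 4 and 9.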

How the data were processed

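Reads were aligned by STAR to the mm10 genome, and the authors deposited 1 table of raw gene counts for each of the 15 libraries, not normalized. The counting tool, annotation and strand setting are not given in the sources used here, and 4 summary lines per library were left out. The genes and lists were chosen with earlier results of these data known. The test was edgeR 4.0.16 under R 4.3.3 (filterByExpr with a minimum count of 10 and a minimum total of 15, TMM, 1 coefficient per condition over all libraries, two-sided glmQLFTest, Benjamini-Hochberg over 14508 genes, threshold 0.1). SE is the log2 fold change divided by the square root of F. Normalized counts are counts over the TMM-scaled library size, at a common depth. The labels do not say that replicates came from separate cultures, so p-values measure the spread between these libraries. No replicate pair agreed within sampling noise (chi-square over degrees of freedom 4.52 to 25.2 in 15 pairs).

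Genes were placed with GENCODE M21 (GRCm38, the build of mm10), 5 members by an older symbol. The KRAB core was a match of the translated coding sequence with at most 3 of 9 fixed A box residues differing. Genes named are, per comparison with wild-type siGLO, the 6 largest rises and falls among called members whose replicates did not overlap and whose normalized counts averaged 50 or more, 3 in each direction for the other comparisons, called members of the role lists, the 6 highest levels per length and the 3 on each side of the count limit; others were chosen after their values were seen. Same-numbered libraries deviated together (mean r 0.31 over 30 pairs, against −0.15 over 60 others, across 11530 genes), with every pair over 0.1 within each comparison except that of *Stag2*-/- siStag1 with wild-type siGLO, the difference between siStag1 effects and the joint comparison of 5 conditions. The deviations are from the mean of 3 libraries, so the second mean r follows largely from the first. The block was fitted over all 15 libraries, including same-numbered pairs that did not vary together (r down to −0.094). The pairing comes from the replicate numbers in the labels. Alternatives were DESeq2 1.42.0, other size factors, the replicate block, other filters, a threshold of 0.05, fits to the compared libraries alone, other member rules, and each library left out. The tests were also run on simulated data with few changed genes and no effect of replicate number, which is unlike these data. Figures were drawn with matplotlib 3.10.9.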

Additional observations from a re-analysis of the deposited data

Results flagged for a closer look

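The effect of siStag1 on *Zfp57* differed between genotypes by the test of the difference itself. It was −1.40 on the log2 scale in *Stag2*-/- cells (1672 to 1941 normalized counts with siStag1, 3601 to 5971 with siGLO) and −0.13 in wild-type cells (5827 to 5856 and 5893 to 6794), a difference of −1.26 (adjusted p = 0.0145, edgeR). The adjusted p was at most 0.0623 with any 1 library left out.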

How the results depend on the processing

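No median of a comparison with calls changed sign, and the counts and medians not named here stayed within 1.5 times or within the spread of replicates. With the replicate block, members called were 77 (40 KRAB members) in *Stag1*-/-, 85 (32) in *Stag2*-/-, 1 (1) in wild-type siStag1, 26 (12) for siStag1 in *Stag2*-/-, 96 between the clones, 137 in *Stag2*-/- siStag1, 2 for the difference between siStag1 effects and 170 over the 5 conditions jointly (against 53.7%, 0.951% and 66.1% of all genes in these last 3, in which some libraries of 1 number did not vary together), and it lost 0 calls and gained 24 over 46 named genes and 7 comparisons, while *Zfp777* was called with it in wild-type siStag1 (adjusted p = 0.0923, edgeR). siStag1 in wild-type cells gave 1 (1) with DESeq2. siStag1 in *Stag2*-/- cells gave 5 members with no expression filter, 3 (2 KRAB) with only the libraries compared and 3 (2) at an adjusted p under 0.05, and the clones compared gave 39 (22) and 41 (22) under the latter 2. With a mean raw count of at least 200, KRAB calls were 10 in *Stag2*-/-, 33 in *Stag2*-/- siStag1 and 20 between the clones. In *Stag1*-/- they were 14 without chromosomes 8 and 15. The division into KRAB members, the next 2 alternatives and the counts without members near the count limit were added after seeing the data. Among members sharing no 150-base stretch, KRAB calls in *Stag1*-/- were 15, and siStag1 in *Stag2*-/- gave 4 (2). Without the libraries numbered 1, *Stag2*-/- gave 81 (36) against 34.5% of all genes, and siStag1 in *Stag2*-/- gave 16 against 8.69%. The difference between siStag1 effects gave 2 in that fit, and the median between the clones was −0.12. For siStag1 in *Stag2*-/-, the calls were 3 higher and 5 lower in the reported fit, but 19 and 7 with the replicate block, 10 and 6 without the libraries numbered 1, 11 and 7 without *Stag2*-/- siStag1 replicate 1, and 3 and 1 among members sharing no 150-base stretch.

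With each library left out in turn, members called ranged from 23 to 52 in *Stag1*-/- (KRAB members 13 to 27), 28 to 66 in *Stag2*-/- (10 to 26), 2 to 18 for siStag1 in *Stag2*-/- (1 to 6) and 41 to 70 between the clones (21 to 40). Of all genes, 13% to 22.2%, 17.1% to 31%, 2.83% to 10.1% and 17.2% to 28.2% were called over these fits, in the same order. The median log2 fold change ranged from −0.021 to 0.044 for siStag1 in wild-type cells, where it changed sign without wild-type siGLO replicate 3 or wild-type siStag1 replicate 1 (and at a mean raw count of at least 200) and no member was called, and from −0.16 to −0.111 between the clones. The lowest counts were without *Stag1*-/- replicate 1 (23), wild-type siGLO replicate 2 (28) and *Stag2*-/- siGLO replicate 2 (2 and 41).

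The 3 libraries per condition limit small changes of genes near a mean raw count of 50, and a p above the threshold does not show that a level was unchanged. Knockout and clone cannot be told apart. The cause of the differences between settings was not tested, except that a stricter threshold or fewer members give fewer calls by construction.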
